A study of Homo sapiens with 12 samples.

Results

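Gene-desert regions were defined from the ATAC-seq peaks of 12 libraries of MIAPaCa2 cells. Peaks on chromosomes 1 to 22 that overlapped by at least 1 bp were merged, which gave 174008 regions. Of these, 46719 were called in 2 to 11 libraries, and 3944 of the 46719 (8.44%) overlapped no gene of the RefSeq table (GRCh38) and lay more than 100 kb from every gene start and end. These 3944 regions were thus selected on the measured calls themselves, so their calls are given as a description. Another 5295 gene-desert regions were called in 1 library and 555 in 12 libraries, and these are not members.

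MIAPaCa2 is an established line of pancreatic ductal adenocarcinoma. The parental cells are sensitive to oxamate, a pyruvate analog that inhibits lactate dehydrogenase A (LDHA), the enzyme that interconverts pyruvate and lactate. The resistant cells were the survivors of prolonged culture of the parental cells in oxamate, kept as a population and with no clone named. Parental untreated, parental treated, resistant untreated and resistant treated cells, where treated means with oxamate, gave 3 libraries per group. All groups shared the same line and growth medium, and the label of no library names a separate culture, so p-values measure the spread between these libraries, which may be technical.

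ATAC-seq uses the Tn5 transposase to insert adapters where DNA is not covered by nucleosomes, and most peaks of such data lie at promoters and enhancers. Gene deserts are long stretches without genes. They hold distal enhancers of some developmental genes, and they also hold the centromeres, which are built of alpha satellite, a short repeat arranged head to tail in larger repeat units that are copied many times. Centromeric and pericentromeric chromatin is mostly compact and carries heterochromatin marks, and the reference genome represents centromeric arrays partly by modelled sequence, so that a position there is a position in the model.

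The lists held between 44665 and 60940 peaks on chromosomes 1 to 22, of which 1302 to 5065 lay in gene deserts. Relative depth was recovered from the lists with the shallowest library set to 1.00. It averaged 1.55 ± 0.220 (SD, n = 3) in parental untreated, 2.27 ± 0.559 in parental treated, 1.43 ± 0.423 in resistant untreated and 1.08 ± 0.0688 in resistant treated libraries. The number of reads is unknown. As a check of the labelled cell type, a peak lay within 1 kb of an end of KRT8, KRT18 and VIM, which encode keratins and vimentin, in 12 of 12 libraries. CDKN2A and MTAP, neighbours in a deletion that this line is known for, had a peak in 0 libraries. An end of PTPRC, the pan-leukocyte gene, had a peak in 0 libraries.

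Most gene-desert regions lay around centromeres. For each chromosome, the gene-free stretch at the textbook centromere position was taken and widened by 2 Mb on either side. These windows held 3639 of the 3944 regions (92.3%), and 3505 (88.9%) lay in the gene-free stretch itself. Among the other regions called in 2 to 11 libraries, 2.41% lay in the windows. Members and windows were both defined by the absence of genes, so this contrast is partly fixed by the definitions. The share of all gene-desert sequence that lies in the windows was not computed. The nearest gene of a member was a pseudogene for 52.6%, a transcribed pseudogene for 31.0%, a long non-coding RNA for 9.99% and a protein-coding gene for 6.21% of members. The median distance to the nearest gene was 988 kb, and it was 1070 kb for the members in the windows and 140 kb for the 305 members outside them.

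The members were spread unevenly over the chromosomes. Chromosome 1 held 822, chromosome 13 held 703, chromosome 7 held 529, chromosome 10 held 350 and chromosome 3 held 246. Chromosome 22 held 0, and chromosomes 14, 15 and 19 held 6, 6 and 8. Chromosomes 4, 6, 14 and 21 had more members outside the window than in it: 31 against 1 on chromosome 4, 35 against 23 on chromosome 6, 6 against 0 on chromosome 14 and 14 against 6 on chromosome 21.

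**Figure D1:**
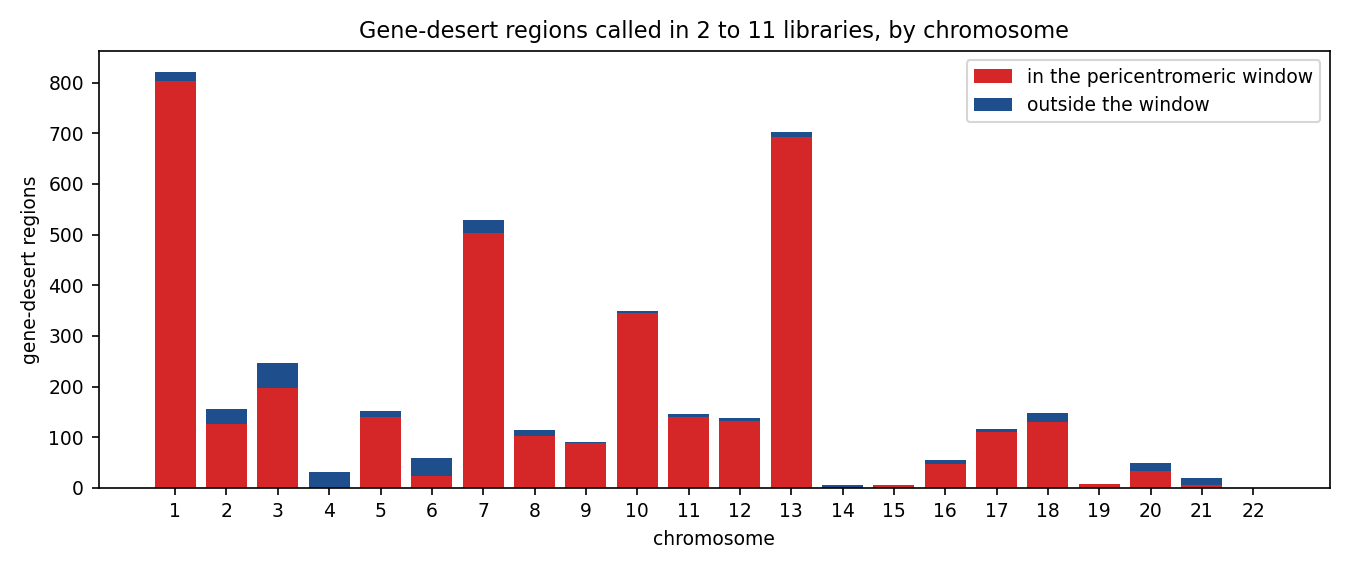
Number of gene-desert regions called in 2 to 11 libraries (y axis) on each of the 22 chromosomes (x axis), split into regions in the pericentromeric window (red) and outside it (blue). Chromosomes 1 and 13 stand highest with 822 and 703 regions, almost all of them in the window, and chromosome 22 has 0.

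When members less than 100 kb apart were joined, they fell into 285 clusters, of which 161 were single regions. The 33 clusters of 10 or more members held 3421 members (86.7%), and 31 of the 33 lay in the windows. The 6 largest clusters held 2507 members (63.6%).

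The largest cluster had 785 members at chr1:122324578-124927269 (GRCh38), in the gene-free stretch that follows the pseudogene EMBP1. It had 302 regions per Mb, with a median width of 267 bp and a median of 1929.5 bp between neighbours. Of its 785 members, 389, 341 and 516 were called in the parental untreated libraries (replicates 1 to 3), 495, 649 and 593 in the parental treated, 273, 422 and 201 in the resistant untreated and 223, 313 and 204 in the resistant treated libraries. The groups overlapped: parental untreated replicate 3 had more than parental treated replicate 1, and resistant untreated replicate 2 had more than 2 of the parental untreated libraries.

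The second cluster lay at chr13:16017759-18051236, before the pseudogene LOC124903223, and had 692 members with a median width of 314.5 bp. It was the most densely filled of the 6, with 340 regions per Mb. The calls were 351, 284 and 435 in parental untreated, 408, 554 and 529 in parental treated, 241, 348 and 146 in resistant untreated and 168, 235 and 113 in resistant treated libraries.

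The other 4 of the 6 clusters were on chromosomes 7, 10, 5 and 12. The cluster at chr7:58172684-60828113 had 491 members, of which 167 ± 68.0 (SD, n = 3) were called per parental untreated, 256 ± 70.9 per parental treated, 108 ± 75.5 per resistant untreated and 64.7 ± 23.8 per resistant treated library. The cluster at chr10:39936542-41583664 had 316 members, and its parental treated libraries called 205, 249 and 237 of them. No other library called more than 191 of these, so that the parental treated libraries did not overlap with the rest there.
The cluster at chr5:49591615-50144549 (117 members), beside EMB, which encodes embigin, called 65, 89 and 79 members in parental treated libraries, and its highest other library called 65. The cluster at chr12:34842385-35982932 (106 members) ranged from 3 members in resistant untreated replicate 3 to 67 in parental treated replicate 3.

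Across the 33 clusters of 10 or more members, the mean of the parental treated libraries was the highest of the 4 groups in 32. In 11 of the 33, each parental treated library called more members than each of the other 9 libraries. Since the members were chosen by their calls, these counts are a description.

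**Figure D2:**
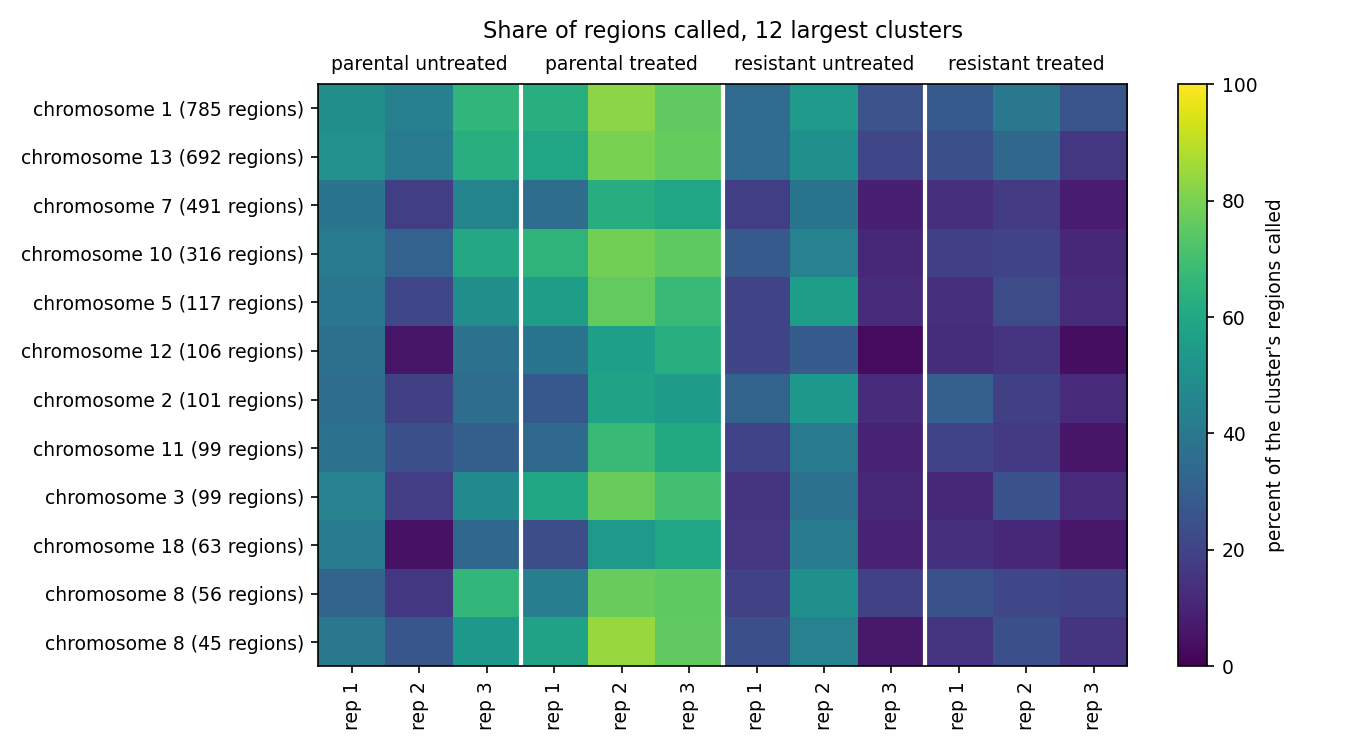
Percent of the regions of each of the 12 largest gene-desert clusters (y axis, with the chromosome and number of regions) that were called in each library (x axis, 3 replicates for each of the 4 groups). The parental treated columns are the brightest in most clusters, and in most clusters replicate 2 is brighter than the other replicates in resistant untreated cells and darker in parental untreated cells.

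Peaks of the chromosome 1 cluster were spaced at a near-regular interval. The distances between peak centres, taken up to 12000 bp, had a period with a median over 12 libraries of 1028 bp and a range of 1002 to 1034 bp. Pairs of peaks within 100 bp of the first 3 multiples of that period were 2.14 times as frequent (median over libraries, range 1.35 to 2.79) as pairs at the 1.5-fold and 2.5-fold points between them. The ratio was above 1 in 12 of 12 libraries, which hold between 488 and 1073 peaks in this interval. For the cluster on chromosome 13 the best period had a median of 2103 bp and ranged from 825 to 3000 bp between libraries. Libraries of each of the 4 groups had a best period between 2056 and 2113 bp. The ratio at the chromosome 1 period had a median of 1.07. For chromosomes 7 and 10 the ratio had medians of 1.09 and 1.33, and the best periods ranged from 497 to 2659 bp and from 409 to 2595 bp. The search for a period was added after the regions had been seen, and the period and its ratio come from the same peaks, so no test is given.

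**Figure D3:**
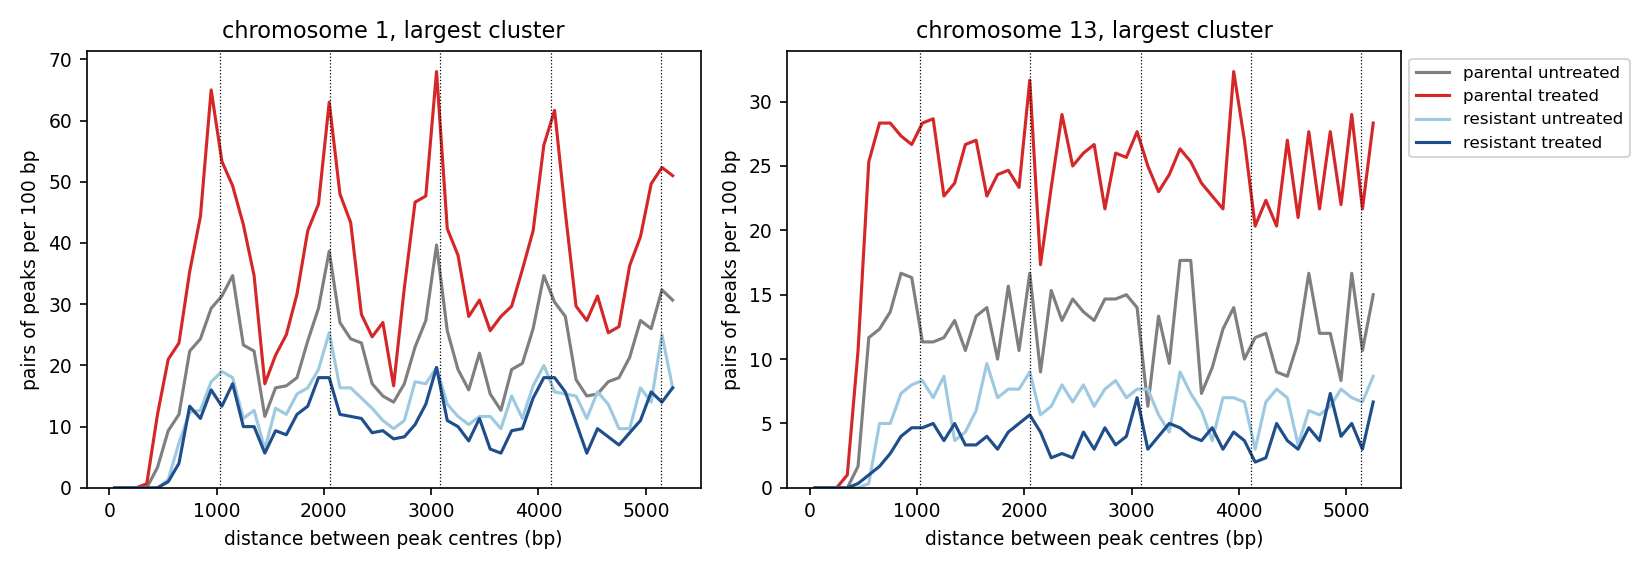
Number of pairs of peaks per 100 bp (y axis, mean of the 3 libraries of each group) against the distance between their centres (x axis, bp) in the largest clusters of chromosomes 1 and 13. Dotted lines mark multiples of 1028 bp, at which the chromosome 1 curves of all 4 groups rise, while the chromosome 13 curves do not rise at each of them.

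The parental treated libraries called the most members. Over replicates 1 to 3, 1685, 1189 and 2086 of the 3944 members were called in parental untreated cells, 1937, 2797 and 2629 in parental treated, 1134, 1750 and 668 in resistant untreated and 905, 1076 and 659 in resistant treated cells. Thus parental treated cells averaged 62.2% ± 11.6 (SD, n = 3) of members and resistant treated cells 22.3% ± 5.31. Among all 46719 regions called in 2 to 11 libraries the order was different, with 29.5% ± 7.83 called in parental treated and 47.1% ± 9.27 in resistant treated libraries.

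Of the 3944 members, 3590 (91%) were called in at least 1 parental treated library, 2884 (73.1%) in parental untreated, 2224 (56.4%) in resistant untreated and 1669 (42.3%) in resistant treated. The parental treated group called 1223 members (31%) in 3 of 3 libraries, against 633 (16%) in parental untreated, 328 (8.32%) in resistant untreated and 228 (5.78%) in resistant treated. The same shares were taken over all regions called in 2 to 11 libraries, in the order parental untreated, parental treated, resistant untreated, resistant treated. Calls in at least 1 library covered 75.7%, 55.9%, 76.5% and 72.9% of them. Calls in 3 of 3 libraries covered 23.2%, 6.52%, 25% and 23.7%. Members called in parental libraries alone made up 34.2%, against 10.9% of all such regions, and members called in resistant libraries alone 2.51%, against 13.9%.

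The 305 members outside the windows had another pattern. Of these, 125, 126 and 115 were called in parental untreated libraries, 69, 123 and 111 in parental treated, 167, 125 and 114 in resistant untreated and 161, 109 and 138 in resistant treated. The groups overlapped throughout. Calls in 3 of 3 libraries covered 17% of these members in parental untreated, 8.52% in parental treated, 21.3% in resistant untreated and 22% in resistant treated cells. For all regions called in 2 to 11 libraries these shares were 23.2%, 6.52%, 25% and 23.7% in the same order. Of the members outside the windows, 16.1% were called in resistant libraries alone, against 13.9% of all such regions. Calls in parental libraries alone made up 20%, against 10.9%.

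To compare groups without the filter on the number of libraries, all peaks of each list that lay in gene deserts were counted. The peaks of the members are among them, so the comparison is not independent of the calls that chose the members. Parental treated replicate 3 called 2629 members and had 4474 desert peaks, and resistant treated replicate 3 called 659 and had 1302. Desert peaks made up 4.59%, 3.34% and 5.79% of peaks in parental untreated, 7.33%, 8.31% and 8.31% in parental treated, 3.20%, 4.94% and 2.54% in resistant untreated and 2.83%, 3.88% and 2.49% in resistant treated libraries. Each parental treated library was above each of the other 9. The groups of untreated cells overlapped, and so did both resistant groups.

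With oxamate, this share was 3.41 percentage points higher in parental cells (7.98% ± 0.564 against 4.57% ± 1.22, SD, n = 3) and differed by -0.494 points in resistant cells (3.07% ± 0.727 treated against 3.56% ± 1.24 untreated). The difference between both effects was -3.90 percentage points (two-sided exact permutation test of treatment labels within phenotype, p = 0.0300, adjusted p = 0.0540 over 9 tests), which did not pass the threshold of 0.05 after adjustment. The share was 2.97 points lower in resistant than in parental cells over both treatments (difference -2.97, exact permutation p = 0.0200, adjusted p = 0.0540), and it was 1.46 points higher in treated than in untreated cells over both phenotypes (exact permutation p = 0.115, adjusted p = 0.141). The smallest p these tests allow is 0.00500. The adjusted exact p of the phenotype difference was 0.0450 without parental untreated replicate 2, 0.0300 without resistant untreated replicate 2 and 0.0450 without resistant treated replicate 2. Leaving out resistant treated replicate 2 brought that of the interaction to 0.0450, with a difference of -4.31. All other omissions left both above the threshold, with an adjusted exact p of up to 0.0750 for the phenotype difference and 0.0990 for the interaction. With same-numbered replicates taken as pairs, the adjusted exact p was 0.169 for the phenotype difference and 0.0938 for the interaction.

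Most of this came from the pericentromeric windows. They held most desert peaks in each of the 4 groups, so most of any difference in the share would fall there. Desert peaks in the windows made up 4.09% ± 1.13 of peaks in parental untreated, 7.20% ± 0.381 in parental treated, 3.10% ± 1.18 in resistant untreated and 2.62% ± 0.721 in resistant treated libraries (SD, n = 3). The interaction was -3.59 percentage points (exact permutation p = 0.0300, adjusted p = 0.0540), the phenotype difference -2.78 (p = 0.0200, adjusted p = 0.0540, same exact test) and the treatment difference 1.32 (p = 0.125, adjusted p = 0.141, same exact test). The same 3 and 1 left-out libraries as above moved the phenotype difference and the interaction past the threshold, and no other omission did. Outside the windows the share was 0.486% ± 0.0918, 0.785% ± 0.185, 0.456% ± 0.0685 and 0.442% ± 0.0253 in the same order of groups, with an interaction of -0.313 points (exact permutation p = 0.0850, adjusted p = 0.142).

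Depth moved with these shares. In each of the 4 groups, the shallowest of the 3 libraries had the lowest share of desert peaks, and the parental treated libraries had relative depths of 1.66, 2.77 and 2.38. At similar depth, parental treated replicate 1 (1.66) had 7.33% of its peaks in deserts, parental untreated replicate 3 (1.77) had 5.79% and resistant untreated replicate 2 (1.85) had 4.94%. When the same number of top peaks, 44665, was taken from each list, the shares were 4.52% ± 1.26, 8.19% ± 0.742, 3.60% ± 1.38 and 3.01% ± 0.785 (SD, n = 3, same order). The part of depth in the result was not tested.

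**Figure D4:**
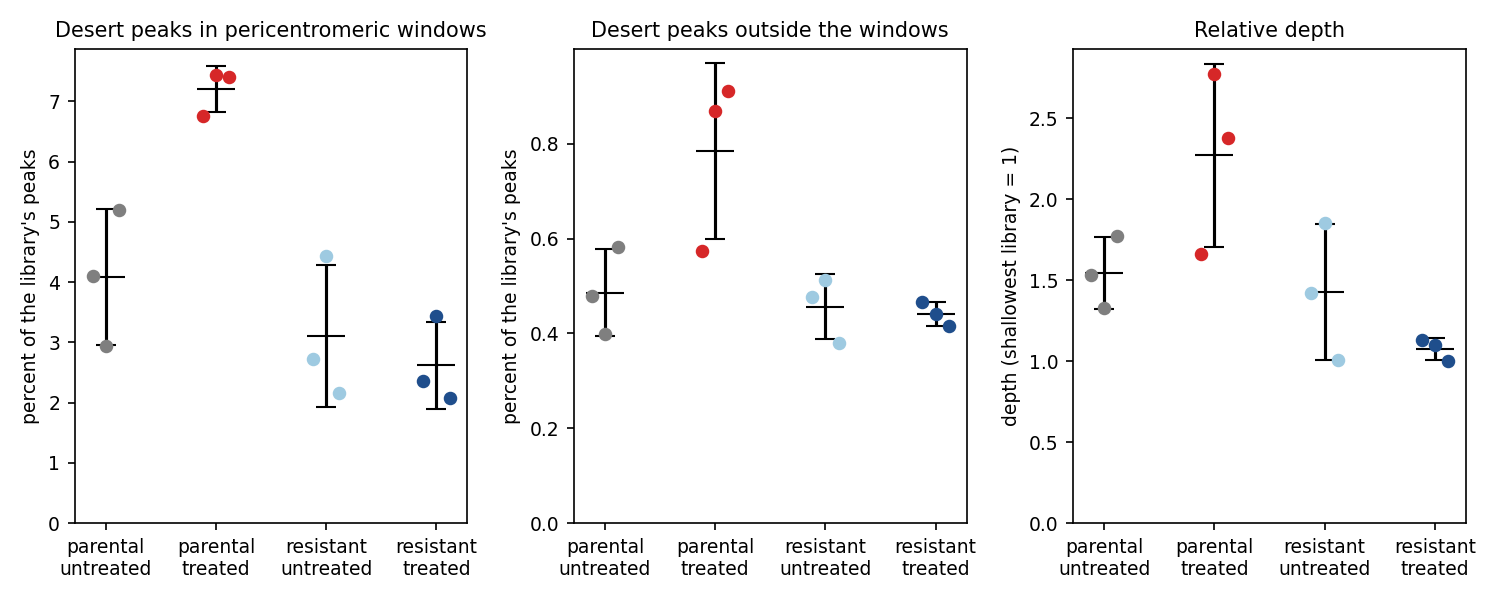
Percent of each library's peaks that lay in gene deserts in the pericentromeric windows (left) and outside them (middle), and relative depth with the shallowest library at 1 (right), by group. Points are libraries, the long dash is the mean and error bars are the SD of 3 libraries. The parental treated libraries lie highest in the left panel, between 6.76% and 7.44%, and their depths reach 2.77.

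Gene-desert regions were narrow. Members had a median width of 292.5 bp (quartiles 190 and 448 bp, range 71 to 2396 bp), against 407 bp for intergenic regions within 100 kb of a gene and 416 bp for regions that overlapped a gene, all called in 2 to 11 libraries. Members under 200 bp made up 27.4% (12.1% of all such regions) and members over 500 bp 19.3% (34.3%). In the windows the median width was 287 bp and outside them 346 bp. Width went with the number of libraries: the median was 218 bp for regions called in 2 libraries, 340 bp in 6, 494 bp in 11 and, beyond the members, 528 bp in 12. A region spans all peaks merged into it, so this trend is partly fixed by the definition.

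Within each list, desert peaks were narrower than the rest. The median width of all desert peaks averaged 196 bp ± 32.2 (SD, n = 12), against 311 bp ± 75.3 for the other peaks of the same list, and the difference had the same sign in 12 of 12 libraries (-182 to -53.0 bp, exact sign-flip permutation p = 4.88e-04, adjusted p = 9.77e-04 over 2 tests). That is the smallest p these libraries can give. Desert peaks also ranked lower by -log10 q, where the rank is the percent of the list at least as strong: their median was at 59.9% ± 5.55 and that of the other peaks at 49.6% ± 0.350 (n = 12, exact sign-flip permutation p = 9.77e-04, adjusted p = 9.77e-04). This held in 11 of 12 libraries, and in parental treated replicate 3 the desert peaks ranked better, at 48.8% against 50.4%. Against intergenic peaks within 100 kb of a gene, the rank difference shrank from 10.3 to 3.79 percentage points and was no longer past the threshold (exact adjusted p = 0.0645). All desert peaks were pooled here, with those of regions called in 1 library (median rank 79.2%) and in 12 (28.5%). The members alone had a median rank of 63.7%, better than comparable regions. It was 70.4% for intergenic regions within 100 kb of a gene and 72.0% for regions that overlapped a gene, all called in 2 to 11 libraries.

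Desert peaks were wider in resistant than in parental cells. The medians were 186, 195 and 164 bp in parental untreated, 139, 158 and 182 bp in parental treated, 254, 211 and 221 bp in resistant untreated and 223, 201 and 216 bp in resistant treated libraries. Within each treatment the phenotypes did not overlap. The difference was 50.3 bp (exact permutation p = 0.00500, adjusted p = 0.0450). The treatment difference was -18.7 bp (p = 0.100, adjusted p = 0.141, same exact test) and the interaction 6.67 bp (p = 0.780, adjusted p = 0.780, same exact test).
The other peaks of the lists moved in the same direction, from 277 ± 38.9 and 222 ± 11.6 bp in parental untreated and treated to 382 ± 54.0 and 364 ± 34.8 bp in resistant untreated and treated libraries (SD, n = 3). So did the smallest peak of each list, which MACS2 sets by the fragment length, at 67 to 87 bp in parental and 94 to 124 bp in resistant libraries. Among peaks of at least 124 bp the phenotype difference was 13.2 bp (exact adjusted p = 0.0750), so the call was lost with that minimum. It was also lost without parental untreated replicate 3, resistant treated replicate 1 or resistant treated replicate 3 (45.9, 47.9 and 49.7 bp, exact adjusted p = 0.0630, 0.0750 and 0.0750).

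**Figure D5:**
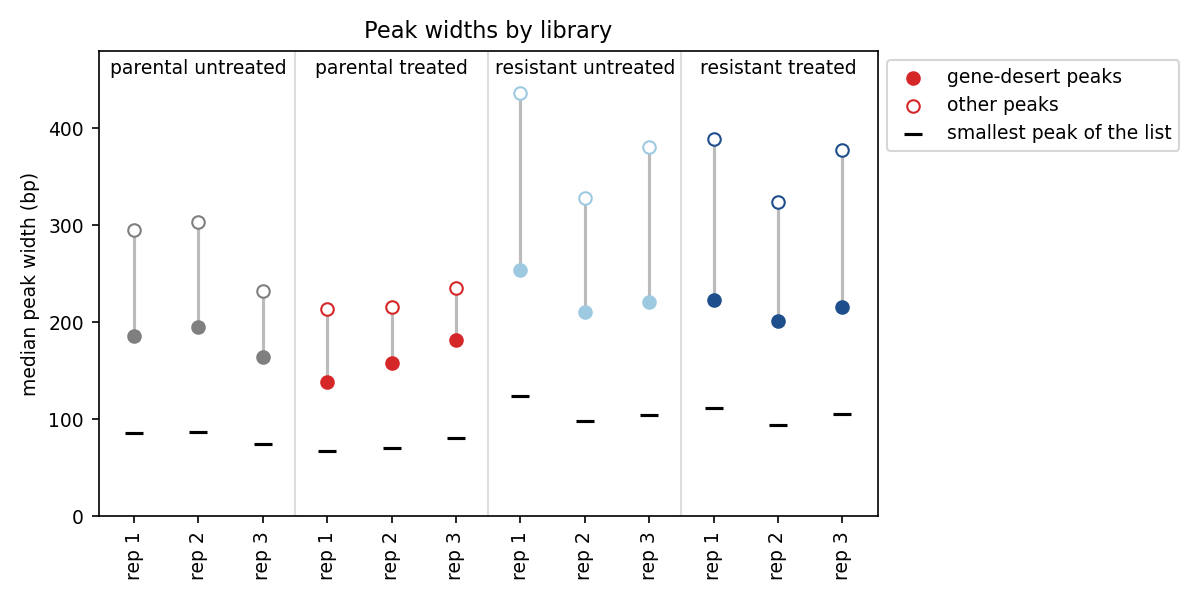
Median width (y axis, bp) of gene-desert peaks (filled circles) and of the other peaks (open circles) in each of the 12 lists (x axis), joined by a line, with the smallest peak of each list as a black dash. The filled circle is below the open one in 12 of 12 libraries, and all 3 marks sit higher in the resistant libraries.

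The widest member, 2396 bp at chr13:18004031-18006426, was called in 10 libraries, with a fold over local background between 3.06 and 4.54. It was not called in resistant untreated replicate 1 and resistant treated replicate 3. The next 2, of 2206 bp at chr13:17468460-17470665 and of 1911 bp at chr13:17604344-17606254, were called in 11 libraries each, with folds of 3.27 to 3.96 and 3.16 to 4.36. All 3 lay in the chromosome 13 cluster. The members farthest from any gene lay on chromosome 1 at 3602, 3599 and 3598 kb from EMBP1. They were called in 2, 2 and 4 libraries, and all but 1 of these calls were in parental treated cells.

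Treatment of parental cells was compared first on single regions. A region was counted as gained where it was called in 3 of 3 treated and 0 of 3 untreated libraries, and as lost in the opposite case. Among members, 123 (3.12%) were gained, of which 122 lay in the windows, while 0.437% of all regions called in 2 to 11 libraries were gained. The members made up 60.3% of the 204 regions gained genome-wide. Only 6 members (0.152%) were lost, against 3.40% of all regions. The counts rest on calls that also chose the members, so they are given without a test. They are sensitive to how a call is made: among peaks whose -log10 q reached 3 the gained members numbered 63, with peaks of at least 124 bp 67, and with 1 library left out, which relaxes the criterion, between 157 (without parental untreated replicate 2) and 403 (without parental treated replicate 1).

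The 2 gained members with the best rank were narrow. Their widths of 91 and 93 bp were below the smallest peak of each resistant list, which was 94 to 124 bp. The region chr17:26101544-26101634, of 91 bp and 880 kb from the pseudogene LOC100422478, had folds of 13.2, 8.50 and 11.2 in parental treated libraries and was called in no other. The region chr10:38899873-38899965, of 93 bp and 180 kb from CHEK2P5, had folds of 7.45, 10.1 and 8.67 there and was called in no other library either. Among the lost members, chr1:124572307-124572581 had folds of 3.29, 3.81 and 3.13 in parental untreated cells alone. The region chr4:35357993-35359422, 1430 bp wide, outside the windows and 128 kb from SEC63P2, was called in 9 libraries at folds of 3.35 to 4.84, in all but the 3 parental treated ones.

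In resistant cells the same treatment gave few such regions: 4 members (0.101%) were gained, against 0.501% of all regions, and 22 (0.558%) were lost, against 0.580%. All 22 lay in the windows. An example of a gain was chr13:16896727-16897598, called at folds of 5.50, 4.12 and 3.35 in resistant treated and in 0 resistant untreated libraries, but also in 5 parental ones. Another gain, chr8:45602248-45602428, was called in 6 of 6 parental libraries too (folds 3.86 to 5.78). The lost regions chr1:123115048-123115372 and chr1:123498682-123498985 were called in all libraries but the 3 resistant treated ones, with folds of 3.00 to 6.81 and 3.40 to 5.16. With 1 library left out, gained members ranged from 8 to 33 and lost members from 30 to 146, with the highest counts without resistant treated replicate 3 and without resistant untreated replicate 3. Whether the treatment changed calls differently in both phenotypes was tested only through the share of desert peaks above.

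Resistant and parental cells were compared next. Untreated, 20 members (0.507%) were gained in resistant cells, against 1.62% of all regions, and 52 (1.32%) were lost, against 1.04%. When -log10 q had to reach 3 the numbers were 16 gained and 14 lost, and with a width of at least 124 bp 24 and 25. With 1 library left out, gains ranged from 28 to 61 (without resistant untreated replicate 3) and losses from 62 to 210 (without parental untreated replicate 2). Treated, 25 members (0.634%) were gained, against 5.18%, and 450 (11.4%) were lost, against 1.63% of all regions. These 450 made up 59.1% of the 761 regions lost genome-wide, and 445 of them lay in the windows, whereas 22 of the 25 gained ones lay outside. This comparison uses the same parental treated libraries as the one above. When -log10 q had to reach 3, the number lost was 223, with a width of at least 124 bp 184, and with 1 library left out it ranged from 494 (without resistant treated replicate 3) to 957 (without parental treated replicate 1).

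Over both treatments, all regions called in 5 to 7 libraries, members or not, were compared between 6 resistant and 6 parental libraries with Fisher's exact test, two-sided, which holds the number of calls of a region fixed. The counts of members past it are a description, since the members were chosen by their calls. Of the 834 members among the 9232 tested regions, 104 (12.5%) were lower in resistant cells at an unadjusted p under 0.05, against 2.73% of all tested regions, and 101 of these lay in the windows. Only 13 (1.56%) were higher, against 8.65%. By treatment, 1 member was higher in treated libraries (background 0.0542%) and 1 lower (1.35%). After Benjamini-Hochberg adjustment, 0 members passed in either comparison, and the smallest adjusted p by phenotype was 0.0819 (Fisher's exact test). That count rose to 15 when -log10 q had to reach 3 and to 53 without parental untreated replicate 2. The 104 lower and 13 higher members became 59 and 13 with that stricter q, 26 and 17 with a width of at least 124 bp, 56 and 14 when peaks had to cover 50% of a region, and 16 and 3 with replicates taken as pairs. With pairs, only regions called in 6 of 6 libraries of 1 phenotype and 0 of 6 of the other can pass. These 16 and 3 are thus the members with that pattern, described next. Depth differed between the phenotypes in the same direction as these calls.

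Of the 3944 members, 16 were called in 6 of 6 parental and 0 of 6 resistant libraries, all in the windows. Of all 46719 regions called in 2 to 11 libraries, 44 had this pattern. The strongest was chr17:24354966-24355060, 95 bp wide and 1649 kb from WEE1P2, in the centromeric stretch of chromosome 17. Its folds were 10.0, 8.64 and 15 in parental untreated and 22.5, 15.3 and 20.6 in parental treated libraries, so that each treated value was above each untreated one. The region chr9:43918781-43918903, 779 kb from LOC102724904, had folds of 11.0, 7.53 and 12.0 in parental untreated and 17.1, 16.9 and 11.1 in parental treated libraries, which overlap. Of the next 3, chr17:26881283-26881395 and chr17:26596370-26596472 lay in the chromosome 17 stretch too (folds 5.64 to 7.26 and 5.60 to 11.1), and chr1:124737961-124738102 lay in the chromosome 1 cluster (3.30 to 5.46). The 5 were 95 to 142 bp wide, narrower than the members' lower quartile. The smallest peak of the resistant lists was 94 to 124 bp wide. The region of 95 bp was narrower than any peak of every resistant list but treated replicate 2. All but the region of 142 bp were narrower than the smallest peak of resistant untreated replicate 1, 124 bp. The part of this minimum in the missing calls was not tested.

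The opposite pattern, 6 of 6 resistant and 0 of 6 parental libraries, was found in 3 of the 3944 members and in 200 of the 46719 regions. All 3 members lay outside the windows. The region chr21:24045876-24046330, 455 bp wide and 136 kb from VN2R20P, had folds of 6.93, 5.11 and 4.92 in resistant untreated and 6.89, 4.26 and 6.63 in resistant treated libraries. The region chr13:103883164-103883473, 817 kb from SLC10A2, which encodes the ileal bile acid transporter, had folds of 5.21, 6.21 and 6.23 untreated and 5.25, 6.02 and 7.02 treated. The region chr10:131635611-131635958, near LINC01164 and 265 kb from PPP2R2D, which encodes a regulatory subunit of protein phosphatase 2A, had folds of 5.15, 4.21 and 6.99 untreated and 4.79, 3.83 and 4.28 treated. In each of the 3, the folds of treated and untreated resistant libraries overlapped.

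Other regions of the comparisons between phenotypes stood farther from centromeres. The region chr7:109654536-109654955 (1008 kb from IMMP2L) was called in 5 resistant and 0 parental libraries, with folds of 9.45, 8.72 and 10.7 untreated and 8.76 and 5.96 in treated replicates 1 and 3. The region chr13:104571353-104571918, 894 kb from DAOA, was called in 6 resistant libraries at folds of 5.25 to 9.63 and in parental treated replicate 2 at 3.18. The region chr11:37622889-37622971, 964 kb from IFTAP, had folds of 13.8, 13.5 and 10.7 in parental treated cells, 14.5 in parental untreated replicate 3 and no call elsewhere. It was 83 bp wide. The smallest listed peak was 86 and 87 bp in parental untreated replicates 1 and 2 and 94 to 124 bp in the resistant lists. No list without a call there thus held a peak this narrow, and the part of that minimum was not tested.

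Some members were among the strongest peaks of their lists and yet were not listed at all in other libraries. The region chr7:119265012-119265193, of 182 bp and 1008 kb from KCND2, which encodes a voltage-gated potassium channel, had folds of 29.3, 32.8 and 34.8 in parental untreated, 28.6, 30.6 and 26.5 in parental treated and 26.4 in resistant treated replicate 2. Its median rank was in the top 0.0812% of the lists, and the other 5 libraries had no peak there. The region chr18:66393172-66393539, 108 kb from CDH19, which encodes a cadherin, had folds of 23.9 and 30.7 in parental untreated replicates 1 and 2 and 21.2 to 26.6 in the 6 resistant libraries, with no peak in parental untreated replicate 3 or in parental treated cells. The region chr18:38294706-38294825 was called in 11 libraries at folds of 17.6 to 29.7 and not in resistant untreated replicate 1, and chr21:19003119-19003306, 517 kb from TMPRSS15, which encodes enteropeptidase, in 11 at 17 to 31.7 and not in resistant untreated replicate 3. The region chr18:38294706-38294825 was 120 bp wide, and the smallest peak of resistant untreated replicate 1 was 124 bp. The reason for the missing calls was not tested.

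The other 3 of the 5 best-ranked members called in 11 libraries were weaker. The region chr3:145400463-145400696 (669 kb from PLOD2, a collagen lysyl hydroxylase) had folds of 6.33 to 16.3. They were 9.37 to 16.3 in parental untreated, 12.9 to 14.9 in parental treated and 6.33 to 10.1 in resistant untreated libraries. In resistant treated replicates 1 and 3 they were 9.90 and 8.69. The region chr17:24751917-24752147, in the centromeric stretch, had folds of 9.73, 9.03 and 11.8 in parental treated libraries and of 4.63 to 8.77 elsewhere. The region chr20:31064955-31065236 had folds between 3.19 and 3.97 only.

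The protein-coding genes beside the 305 members outside the windows were many, most with 1 to 3 members. Those with the most members were DEFB115, a beta-defensin gene (14 members at chr20:31053903-31106096), TFAP2A, which encodes a transcription factor of ectoderm and neural crest (11 at chr6:9455827-9540837), CADM2, a neuronal cell adhesion gene (8 at chr3:83567633-83686987), and PROS1, which encodes protein S (8 at chr3:93492028-93651850). The groups near DEFB115 and PROS1 lay just beyond the window of 2 Mb around the centromeric stretch. Their calls summed over 3 libraries were 24, 36, 13 and 12 near DEFB115 and 4, 13, 2 and 0 near PROS1 in parental untreated, parental treated, resistant untreated and resistant treated cells, an order like that of the windows. Near TFAP2A the sums were 22, 12, 27 and 19, and near CADM2 9, 7, 14 and 14, with parental treated cells lowest.

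Developmental regulators were the nearest protein-coding gene of 20 of the 305 members (6.56%), against 1.4% of the intergenic regions within 100 kb of a gene. Besides TFAP2A these were SOX9, a regulator of cartilage and of pancreatic progenitors (4 members, at 356 to 708 kb), SALL3 (3), IRX6 (1) and SATB1 (1). The 4 members near SOX9 had 3 calls in parental untreated, 1 in parental treated, 6 in resistant untreated and 10 in resistant treated libraries. Genes of cell adhesion and synapse organisation were nearest to 23 members (7.54%), against 1.05%, among them CADM2, ROBO1 (3), CDH11 (2) and CDH9 (2). The members near ROBO1, an axon guidance receptor, had 1, 6, 1 and 0 calls in the same order. In the windows, by contrast, zinc finger genes were nearest to 797 members (21.9%) and olfactory receptor genes to 140 (3.85%), against 2.00% and 0.802% of the intergenic regions. Each of these 4 counts rests on few neighbourhoods, whose members are no independent cases: 5 developmental genes, with 11 of the 20 members in the stretch near TFAP2A, 12 adhesion genes, with 8 of the 23 near CADM2, 5 zinc finger genes and 3 olfactory receptor genes. Members were chosen beyond 100 kb of any gene and the compared regions within it. Genes that border long gene-free stretches are thus favoured, and these contrasts are partly fixed by the definitions. The share of desert sequence nearest to the listed genes was not computed.

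At the threshold of 100 kb, the 3 members closest to a gene lay at 100099 bp from NEK7 (chr1:198056168-198056899, called in 4 libraries), 100297 bp from LOC100422478 (the chromosome 17 region named above, called in 6) and 100435 bp from PIP5K1P2 (chr7:159335758-159335959, called in 10). The 3 regions that just missed it lay at 99890, 99705 and 99683 bp from LINC03017, LOC107987084 and LOC124907827, and were called in 2, 5 and 4 libraries.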

How the data were processed

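ATAC-seq libraries of parental and oxamate-resistant MIAPaCa2 cells, untreated or treated, were used as 12 deposited lists of broad peaks (hg38). The authors aligned reads with Bowtie2 2.1.0, dropped duplicates and reads that were mitochondrial or not uniquely placed, and called peaks per library with MACS2, whose version is not given in the sources used here. The deposited values of a peak are its fold over local background (a ratio) and the -log10 of its p-value and q-value; the smallest -log10 q was 1.00. Reads were not counted here, and no counting interval was derived.

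Peaks on chromosomes 1 to 22 were used, which left out 3.43% of 677901. Positions are 1-based. Genes were the 56756 of RefSeq (GRCh38.p14). A stretch of 21 of the 22 chromosomes contained the textbook centromere position, and on chromosome 9 the nearest gene-free stretch was taken. Relative depth was solved from the commonest combination of fold and -log10 p per list (largest misfit in -log10 p 1.13e-05) and the smallest width.

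Groups and replicate numbers came from the sample titles. Tests over libraries were two-sided exact permutation tests within strata (400 assignments) or sign flips (4096), with Benjamini-Hochberg adjustment over 9 and 2 tests. Regions were tested by Fisher's exact test, adjusted over 9232. The code was tested on simulated data. Alternatives were a stricter q, equal list lengths, a minimum width, other distances and windows, a replicate block and the omission of each library in turn. Regions were named by rule: the 6 largest clusters, the 3 widest, the 3 farthest from a gene, the 5 best-ranked in 11 libraries, up to 5 per direction in 6 of 6 against 0 of 6 libraries, the 2 best-ranked per comparison and direction, and 3 on either side of 100 kb. 1 marker gene fixed for the cell type check is not reported here. The members, gene lists and tests were chosen with earlier results of these data known. Python 3.11.15, numpy 2.4.6, pandas 2.3.3, SciPy 1.17.1 and matplotlib 3.10.9 were used.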

Additional observations from a re-analysis of the deposited data

Results flagged for a closer look

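The difference between the treatment effects of both phenotypes drew attention for the share of peaks in gene deserts. It was -3.90 percentage points, taken as resistant minus parental, with an exact permutation p of 0.0300 (adjusted p = 0.0540). Each of the 3 parental treated libraries was above each of the 3 parental untreated ones, while the resistant groups overlapped. For desert peaks in the pericentromeric windows alone it was -3.59 percentage points (exact permutation p = 0.0300, adjusted p = 0.0540). Neither passed the adjusted threshold, and relative depth differed between the groups in the same order.

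Peaks on contigs without a place on a chromosome, which no comparison above used, were also more frequent in parental treated cells. They made up 1.12% ± 0.0430 of peaks (SD, n = 3, range 1.07% to 1.15%), against 0.713% ± 0.0950 in parental untreated cells (0.621% to 0.810%), with no overlap. In resistant cells they made up 0.609% ± 0.158 untreated and 0.574% ± 0.146 treated. The interaction was -0.437 percentage points (exact permutation p = 0.0250, not adjusted). Depth was higher in parental treated libraries, and its part was not tested. The contig share was picked because the 2 parental groups did not overlap, so the lack of overlap and the p-value are no separate support. The share of desert peaks on chromosome X was screened by the same rule and did not meet it.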

How the results depend on the processing

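The lists hold calls and no reads, depth differs between groups, reads in repeats were kept only where uniquely placed, and windows rest on approximate centromere positions. Of 114 planned values other than omissions of a library, 82 kept their direction and side of the threshold, or stayed within 1.5 times the count; for the rest the cause was not tested. The width difference between phenotypes was 42.5 bp with -log10 q of at least 3, 13.2 bp with a minimum width of 124 bp and 84.8 bp outside the windows, each with an exact adjusted p above 0.05, and its interaction turned to -11.7 bp with that minimum width. The rank difference was 3.79 against intergenic peaks. With the stricter q, members lower by phenotype were 59, those past the adjusted threshold 15, those higher and lower by treatment 0 and 0. With it, members gained and lost with treatment were 63 and 3 in parental and 1 and 12 in resistant cells, and those lost in resistant cells 14 untreated and 223 treated. With the minimum width, members lower by phenotype were 26 and by treatment 0, treatment of parental cells gave 67 gained and 14 lost, and 25 and 184 were lost in resistant untreated and treated cells. With peaks covering 50% of a region, members lower by phenotype were 56 and by treatment 0, 12 were lost with treatment in resistant cells, 29 were lost in resistant untreated cells, and 15 were gained and 235 lost in resistant treated cells.

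Replicate numbers did not pair the libraries. Deviations from the group means correlated between -0.0567 and 0.0779 over 18 same-numbered pairs, 0 of them above 0.1, and a library correlated best with its own number in 14 of 36 comparisons. With the replicate block the width difference of 50.3 bp had an exact adjusted p of 0.0938, and 3 members were higher and 16 lower by phenotype and 0 and 0 by treatment at an unadjusted p under 0.05, since the block allows fewer assignments. The block left the interaction of the share at -3.90 (exact adjusted p = 0.0938) and changed no other call.

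With 1 library left out, the share of desert peaks differed between phenotypes by -3.31 to -2.66 percentage points and its interaction ranged from -4.51 to -3.21. In the windows the ranges were -3.11 to -2.50 and -4.15 to -2.93. The width difference ranged from 44.0 to 55.9 bp and its interaction from -3.67 to 19.3 bp, turning negative without parental treated replicate 1 (-3.67) or resistant untreated replicate 2 (-2.17). Members past the adjusted threshold by phenotype ranged from 0 to 53, and those higher and lower by treatment from 1 to 5 and 1 to 2. Counts of gained and lost members rose by construction, since 2 libraries of a group then sufficed: gained and lost numbered 157 to 403 and 9 to 56 with treatment of parental cells, 8 to 33 and 30 to 146 with treatment of resistant cells, 28 to 61 and 62 to 210 in resistant against parental untreated cells, and 29 to 50 and 494 to 957 in resistant against parental treated cells.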

Other observations

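On chromosome X, desert peaks were few, with 5 to 26 per library. They made up 0.794% ± 0.150 of the chromosome's peaks in parental untreated, 1.29% ± 0.719 in parental treated, 0.899% ± 0.387 in resistant untreated and 0.728% ± 0.206 in resistant treated libraries (SD, n = 3). The interaction was -0.667 percentage points (exact permutation p = 0.200), and parental treated replicate 1 had the lowest share of all, at 0.462%.

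Of the 5295 gene-desert regions called in 1 library, 74.5% lay in the windows, against 92.3% of the members and 89.9% of the 555 gene-desert regions called in 12 libraries. Their median width was 123 bp and their median fold 3.28, against 528 bp and 5.50 for those called in 12. The latter span the merged peaks of 12 libraries, so the difference in width is partly fixed by the merging.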
